A study of Mus musculus with 6 samples.

Results

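The 39 genes described here are markers of neurons and of sensory ganglia: transcription factors of neuronal fate, RNA-binding, cytoskeletal, synaptic and secretory granule genes and a few surface or calcium-signalling genes. They were chosen by gene symbol, not by their values, and all 39 were found among the 24421 rows of the deposited comparison. RNA was sequenced from the anterior palatal mesenchyme of C57BL/6 mouse embryos at E12.5, taken after the epithelium had been stripped with Dispase II. The 2 groups were 3 wildtype (WT) samples and 3 Wnt1Cre;Meis2f/f samples, in which Cre recombinase driven in the neural crest acts on floxed alleles of Meis2, a TALE homeodomain transcription factor. No group carried Cre alone, so an effect of the Wnt1Cre transgene cannot be told apart from that of the Meis2 deletion. The sources used here do not say whether a sample pooled several embryos.

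The cell bodies of sensory neurons that serve the palate lie in the trigeminal ganglion, outside the mesenchyme, and their axons grow into it along the maxillary nerve. Cells of the neural crest, in which Wnt1Cre acts, form the palatal mesenchyme, the peripheral glia and the autonomic neurons of the head, including the parasympathetic ganglia behind the palate. Sensory neurons of the trigeminal ganglion come from neural crest and from placodes. Proneural factors such as Neurog1 start neuronal differentiation, Isl1 and Pou4f1 mark sensory neurons, and cytoskeletal genes such as Tubb3, Dcx and Gap43 are switched on as axons grow. In bulk tissue, fewer cells of a type and less RNA per cell cannot be told apart.

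The authors deposited DESeq2 comparisons, not values per library, and whole read counts of each library were recovered from the base means of the 6-library table and of a 4-library table that leaves out 1 library of each genotype. Of 18731 genes tried, 18731 (100%) had exactly 1 set of 6 counts that fitted both tables, and all 39 members were among them. The libraries are called wildtype A, B and C and mutant D, E and F here. These letters carry no order and could not be tied to the submitters' replicate numbers, and C and F are the libraries absent from the 4-library table. Values per library are normalised reads, that is reads divided by size factors that ran from 0.7745 in B to 1.4376 in D. Meis2 gave 1526, 1695 and 1549 normalised reads in A, B and C and 1250, 1218 and 1378 in D, E and F. The sign of the comparison was read from this gene, so every direction below rests on Meis2 being lower in the mutant, and its log2 fold change was -0.28 (SE 0.092, DESeq2 adjusted p 0.0743), per the authors' deposited table. Markers of palatal mesenchyme (Prrx1, Osr2, Pdgfra, Twist1 and Shox2) had base means of 580 to 16535, and markers of epithelium (Krt5, Krt14, Cdh1 and Epcam) had base means of 107 to 242, per the authors' deposited table. Of the mesenchymal markers, Prrx1, Twist1 and Shox2 were themselves lower in the mutant, by log2 fold changes of -0.31, -0.45 and -0.90 (DESeq2 adjusted p 0.0204, 0.00859 and 4.36e-10), per the authors' deposited table. Their part in the results below was not tested. Wildtype C stood apart by neuronal genes: 15 of 12320 genes were over 2 times higher there than in every other library, among them Nefm, Prph, Scn9a, P2rx3, Cntn2, Sncg and Myt1. Of the genes named, Prph, Sncg and Myt1 had base means of 3.68, 7.985 and 6.64 in the 4-library table, per the authors' deposited table. Mutant E stood apart by 35 genes, most of them genes of skeletal muscle fibres, and the other 4 libraries by 0 to 5 genes each. In the other direction, 66 genes in wildtype B, Stmn2 among them, and 29 in wildtype A were under 0.5 of every other library, against 3 to 15 in the other 4.

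Pcp4, Elavl4 and Prph stand for the patterns described below: a gene low in every mutant library, a gene low in the mutant but also high in wildtype C, and a gene high almost only in wildtype C. The stretch of 250 bases before a start site of each is given 5′ to 3′ on the gene's strand, from the RefSeq promoter table (GRCm38.p6). Capitals mark TGACAG, the core of the site that Meis homeodomains prefer, searched on both strands. The windows are chr16:96467356-96467605 (plus strand) for Pcp4, chr4:110287528-110287777 (minus strand) for Elavl4 and chr15:99054924-99055173 (plus strand) for Prph.
Pcp4: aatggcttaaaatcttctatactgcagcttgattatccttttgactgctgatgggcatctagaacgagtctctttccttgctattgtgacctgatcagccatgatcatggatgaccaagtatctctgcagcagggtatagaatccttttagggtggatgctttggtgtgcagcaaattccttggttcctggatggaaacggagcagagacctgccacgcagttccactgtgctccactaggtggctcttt
Elavl4: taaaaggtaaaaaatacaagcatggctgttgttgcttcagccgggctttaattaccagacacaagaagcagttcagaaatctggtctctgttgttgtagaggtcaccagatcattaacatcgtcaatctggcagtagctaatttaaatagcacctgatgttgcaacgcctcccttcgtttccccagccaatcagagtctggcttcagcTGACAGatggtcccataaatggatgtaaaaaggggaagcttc
Prph: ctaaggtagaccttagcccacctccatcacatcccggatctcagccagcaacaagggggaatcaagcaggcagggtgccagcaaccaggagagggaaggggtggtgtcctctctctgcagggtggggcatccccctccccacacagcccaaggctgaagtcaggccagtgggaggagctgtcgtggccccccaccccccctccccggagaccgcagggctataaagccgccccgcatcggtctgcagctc
The motif begins 42 bases before this Elavl4 start and is in neither of the other windows. Of the other Elavl4 promoters, chr4:110286835-110287084 lacked the motif and chr4:110351912-110352161 held another one. The window chr4:110287512-110287761 overlaps the one shown and holds the same site, so this site is counted with both promoters below. Of the 39 members, 28 had promoters in the table, 46 promoters in all, and 8 of these 46 (17.4%) held the motif, against 15.9% of 32851 promoters of all genes.

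Of the 39 members, 22 were measured (a base mean, the mean normalised read count over the libraries, of at least 10) and 17 were not. Transcripts of 6 measured members were lower in the mutant and 0 were higher at a DESeq2 adjusted p under 0.05, per the authors' deposited table of 6 libraries, where 1.19% of all measured genes were lower and 1.79% higher. The 6 were Pcp4, Dcx, Tubb3, Gap43, Nefm and Elavl4. Without adjustment, 8 of the 22 were lower and 0 higher at a p under 0.05, against 5.21% and 5.46% of all measured genes, per the authors' deposited table. The log2 fold change was below 0 for 19 of the 22 members, against 54.0% of all measured genes, and its median was -0.15 against -0.01, per the authors' deposited table. In the reads per library, every mutant library lay below every wildtype library for 10 of the 22 members and above for 0, against 8.94% and 9.24% of 12320 genes. Prph was measured only through 1 wildtype library, and without it 18 of 21 members had a log2 fold change below 0 and 9 of 21 lay below in every mutant library. Without Prph, 7 of 21 were lower at an unadjusted p under 0.05 (DESeq2), per the authors' deposited table. Scg3, which passed the limit of 10 only with wildtype C, is among the 18, at a log2 fold change of -0.01, per the authors' deposited table. Summed over all 39 genes, normalised reads were 3858, 3855 and 4491 in wildtype A, B and C and 3159, 3313 and 3093 in mutant D, E and F. The groups do not overlap in this sum, which was 0.784 of the wildtype mean in the mutant and 0.827 when wildtype C was left out. Dpysl3, Map2, Gap43, Dcx and Crmp1 weigh most in it, with wildtype means of 1143, 633, 449, 334 and 283 normalised reads. Gap43 and Dcx are also among the 6 called lower.

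**Figure D1:**
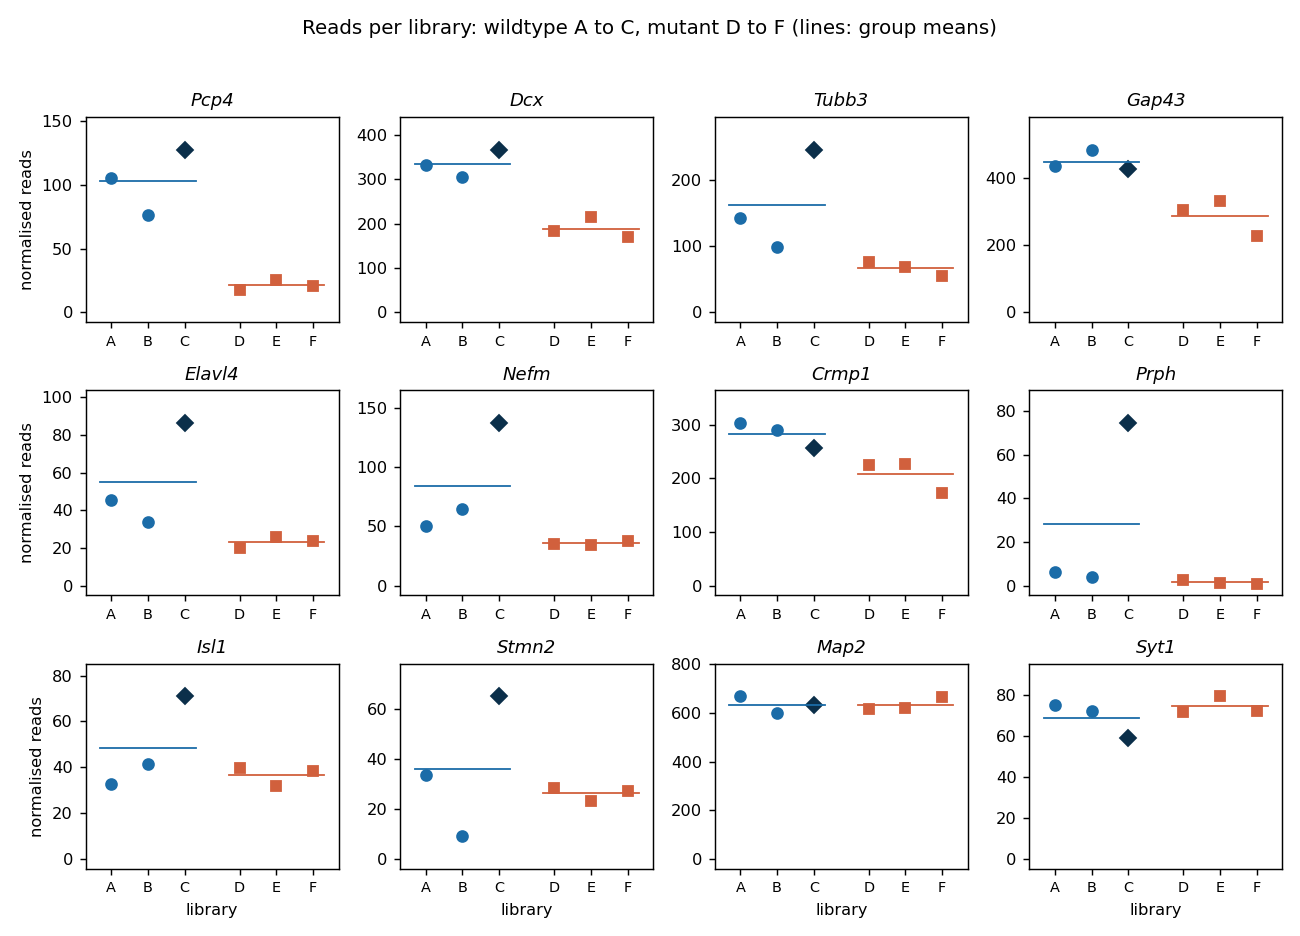
Normalised reads (vertical axis, 1 panel a gene with its own scale) of 12 members in each library (horizontal axis), with wildtype A and B as circles, wildtype C as a diamond, mutants as squares and lines at the group means. All 3 mutant libraries lie below all 3 wildtype libraries for Pcp4, Dcx, Tubb3, Gap43, Elavl4, Nefm, Crmp1 and Prph, while wildtype C alone stands high for Prph, Isl1 and Stmn2, and Map2 and Syt1 overlap.

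Microtubule and growth cone genes, which build the growing axon, held 3 of the 6 lower members: Dcx, Tubb3 and Gap43. Dcx, the microtubule-binding protein doublecortin of young migrating neurons (chromosome X, 143855842 to 143933311, minus strand, GRCm38), gave 332, 305 and 367 normalised reads in wildtype A, B and C and 184, 214 and 169 in mutant D, E and F. The lowest wildtype library lay well above the highest mutant library, and the 3 libraries of each genotype lay close together (334 ± 31.1 and 189 ± 22.8, SD, n = 3 each). Dcx fell by 0.66 on the log2 scale (SE 0.122, DESeq2 adjusted p 9.84e-06), per the authors' deposited table. Per the authors' deposited table of 4 libraries its adjusted p was 0.0250 (DESeq2), so the call stood without wildtype C and mutant F.

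Tubb3, the beta-tubulin of neurons (chromosome 8, 123411424 to 123422015, plus strand), gave 142, 99.4 and 246 normalised reads in the wildtype libraries and 76.5, 68.5 and 54.6 in the mutant libraries. All mutant libraries were below all wildtype libraries, and wildtype C was 1.73 times the next highest. Tubb3 fell by 0.68 on the log2 scale (SE 0.150, DESeq2 adjusted p 0.000519), per the authors' deposited table. With 4 libraries the adjusted p was 0.314 (DESeq2), per the authors' deposited table. The mutant mean was 0.409 of the wildtype mean, and 0.551 when wildtype C was left out, where limma gave an adjusted p of 0.0596.

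Gap43, a growth cone protein of extending axons (chromosome 16, 42248442 to 42340651, minus strand), gave 437, 484 and 426 normalised reads in the wildtype and 305, 330 and 229 in the mutant libraries. The groups did not overlap and wildtype C was the lowest of its group. Gap43 fell by 0.51 on the log2 scale (SE 0.122, DESeq2 adjusted p 0.00193), per the authors' deposited table. The mutant mean was 0.642 of the wildtype mean with wildtype C and 0.625 without it. The adjusted p of Gap43 was 0.0509 (DESeq2) with 4 libraries, per the authors' deposited table, just past the threshold, and 0.0333 in limma when wildtype C alone was left out.

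Crmp1, which relays semaphorin signals to the growth cone cytoskeleton, gave 303, 289 and 257 normalised reads in the wildtype and 225, 226 and 172 in the mutant libraries. The groups did not overlap here either, but the log2 fold change of -0.35 (SE 0.125) did not pass the test (DESeq2 adjusted p 0.138), per the authors' deposited table. Its relative Dpysl3 gave 965 to 1104 normalised reads in the mutant and 1090 to 1221 in the wildtype libraries, with overlap. Map2, a microtubule-associated protein of dendrites and cell bodies that other cells also express, gave 669, 599 and 632 against 617, 619 and 665, and the groups overlapped throughout. Mapt, the axonal protein tau, gave 40.0 to 71.0 in the wildtype and 44.0 to 48.7 in the mutant libraries. Stmn2, a tubulin-binding protein of growing axons, gave 33.6, 9.04 and 65.0 against 28.5, 23.2 and 27.3, so its wildtype libraries lay on both sides of the mutant ones. Stmn3 and Stmn4, of the same family, had at most 17 reads in any library. Summed over these 10 genes, normalised reads were 3062, 3052 and 3208 in the wildtype and 2530, 2648 and 2342 in the mutant libraries. The 2 groups of this sum were apart, and leaving out wildtype C changed the mutant share from 0.807 to 0.820.

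By the deposited log2 fold change, the member with the largest fall was Pcp4 (Purkinje cell protein 4, chromosome 16, 96467606 to 96525793, plus strand), a small protein that modulates calmodulin. It gave 105, 76.2 and 128 normalised reads in wildtype A, B and C and 17.4, 25.7 and 20.7 in mutant D, E and F. The highest mutant library lay far below the lowest wildtype library, and the mutant mean was 0.206 of the wildtype mean, or 0.234 without wildtype C. This ratio lies well below what the moderated log2 fold change of -1.14 (SE 0.150, DESeq2 adjusted p 1.07e-11), per the authors' deposited table gives. In limma on the recovered reads the log2 difference was -2.21 (SE 0.242, adjusted p 0.000376), and the highest adjusted p with any 1 library left out was 0.00756. Prph lay lower on these 2 scales, at 0.0583 of the wildtype mean and -2.46 in limma. Without wildtype C its mutant mean was 0.321 of the wildtype mean. Exons of Pcp4 overlap Igsf5 on the same strand, and Igsf5 had a base mean of only 2.16, per the authors' deposited table.

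The other surface and cytoplasmic members did not pass the test. Uchl1, a deubiquitinase abundant in neurons, gave 99.9, 106 and 110 normalised reads in the wildtype and 84.2, 97.8 and 80.9 in the mutant libraries. Every mutant library was lower, by little, and the adjusted p was 0.758 (DESeq2), per the authors' deposited table. L1cam, an adhesion molecule of axon bundles, gave 58.3, 65.8 and 98.2 against 57.0, 52.6 and 64.0, with mutant F above wildtype A. Thy1, a surface glycoprotein of neurons, had 7, 0 and 2 reads in the wildtype and 12, 5 and 5 in the mutant libraries. Exons of L1cam overlap Arhgap4.

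Intermediate filament genes, which encode the neurofilaments that widen axons and the peripheral nerve filament peripherin, held 1 lower member, Nefm. Nefm, the medium neurofilament subunit (chromosome 14, 68082590 to 68124846, minus strand), gave 50.3, 64.6 and 137 normalised reads in the wildtype and 35.5, 34.2 and 37.6 in the mutant libraries. The groups did not overlap, the mutant libraries were nearly level, and wildtype C was 2.13 times the next highest. Nefm fell by 0.52 on the log2 scale (SE 0.149, DESeq2 adjusted p 0.0190), per the authors' deposited table. With 4 libraries the adjusted p of Nefm was 0.745 (DESeq2), per the authors' deposited table, and the mutant mean was 0.426 of the wildtype mean with wildtype C and 0.623 without it. In limma on the recovered reads its adjusted p was 0.111 with all 6 libraries.

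Prph, which encodes peripherin (chromosome 15, 99055174 to 99058978, plus strand), gave 6.39, 3.87 and 74.5 normalised reads in the wildtype and 2.78, 1.22 and 0.941 in the mutant libraries, from 8, 3 and 63 reads against 4, 1 and 1. Most of its signal was in wildtype C, 11.7 times the next highest library, and it counted as measured only through that library. Its adjusted p was 0.458 (DESeq2), per the authors' deposited table. Nefl, the light neurofilament subunit, gave 48.7, 83.9 and 89.9 against 38.95, 59.9 and 57.4, so that the lowest wildtype library overlapped the mutant ones. Annotated exons of Nefl and Nefm overlap on opposite strands, and the sources used here do not say whether counting used strand, so reads of the overlap cannot be told apart. Ina, the filament alpha-internexin of young neurons, had 11 reads in wildtype C and 0 to 2 in every other library, and its exons overlap the far more abundant Nt5c2. Nefh had 1 to 11 reads and was highest in mutant D. Summed over the 5 genes, normalised reads were 110, 156 and 321 in the wildtype and 86.3, 97.8 and 103 in the mutant libraries, or 0.490 of the wildtype mean, and 0.719 without wildtype C.

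Among RNA-binding proteins of neurons, which control splicing and the stability of neuronal transcripts, 1 of 4 measured members was lower. Elavl4, also called HuD (chromosome 4, 110203722 to 110351909, minus strand), gave 45.5, 33.6 and 86.3 normalised reads in the wildtype and 20.2, 25.7 and 23.5 in the mutant libraries. The groups did not overlap, and wildtype C was 1.90 times the next highest. Elavl4 fell by 0.49 on the log2 scale (SE 0.147, DESeq2 adjusted p 0.0341), per the authors' deposited table. With 4 libraries its adjusted p was 0.800 (DESeq2), per the authors' deposited table, and the mutant mean was 0.419 of the wildtype mean with wildtype C and 0.585 without it. Elavl2 gave 131, 112 and 154 against 89.0, 122 and 143, and Elavl3 had 2 to 14 reads a library. Rbfox3, the antigen NeuN of mature neurons, gave 15.2, 16.8 and 24.8 against 14.6, 12.2 and 14.1, apart by less than 1 normalised read at the nearest. Celf3, a splicing regulator, had the highest log2 fold change of the measured members at 0.13 (DESeq2 adjusted p 0.865), per the authors' deposited table. Its libraries gave 40.7, 54.2 and 72.1 in the wildtype and 64.0, 39.1 and 98.8 in the mutant, which overlapped, and its exons overlap Riiad1 on the opposite strand.

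Transcription factors of neuronal fate were near the limit of detection except Isl1. Isl1, a LIM homeodomain factor of sensory, motor and autonomic neurons, gave 32.8, 41.3 and 71.0 normalised reads in the wildtype and 39.6, 31.8 and 38.6 in the mutant libraries. Wildtype C was the highest and the other 5 libraries lay together, with an adjusted p of 0.808 (DESeq2), per the authors' deposited table. Pou4f1, the sensory neuron factor Brn3a, had 5, 0 and 11 reads in the wildtype and 4, 3 and 5 in the mutant libraries. Neurog1, the proneural factor of the cranial sensory ganglia, had 1, 0 and 3 reads in the wildtype and 0 in each mutant library, and Neurod1, which acts after it, had all of its 3 reads in wildtype C and shares exon sequence with Cerkl. Nhlh2 had 7 reads in wildtype C and 1 or 2 in every other library, and Nhlh1 had 0 to 2. A count of 0 allows up to 3 reads, so no difference in Neurog1, Neurod1 or Nhlh1 was detectable at this depth.

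Synaptic vesicle and secretory granule genes, which act in transmitter and peptide release, held 0 members that passed the test, and 2 of 5 and 1 of 4 were measured. Syt1, the calcium sensor of vesicle release, gave 75.1, 72.3 and 59.1 normalised reads in the wildtype and 71.7, 79.5 and 72.4 in the mutant libraries. Syn1, which tethers vesicles, gave 29.6, 31.0 and 35.5 against 29.9, 31.8 and 39.5, and its exons overlap the far more abundant Araf. Neither gene separated the genotypes. Snap25, of the fusion machinery, had 2, 6 and 12 reads against 4, 1 and 5, and Syp 11, 3 and 16 against 7, 6 and 5, both with the most in wildtype C. Syt4 gave 7, 7 and 13 reads against 4, 2 and 4, without overlap after normalisation, at a base mean under 10. Scg3, a granule protein shared with endocrine cells, gave 7.19, 6.46 and 17.7 normalised reads against 9.04, 7.34 and 13.2, and Chga and Scg2 had 0 to 13 reads a library. Chgb had 2, 3 and 2 reads in the wildtype and 7, 9 and 4 in the mutant libraries, with overlap after normalisation. Summed over the 4 granule genes, normalised reads were 16.0, 11.6 and 27.2 in the wildtype and 23.0, 22.0 and 24.5 in the mutant libraries. Wildtype C was the highest and the mutant libraries lay between it and the others, so the mutant sum was 1.27 times the wildtype mean, and 1.68 times without wildtype C.

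**Figure D2:**
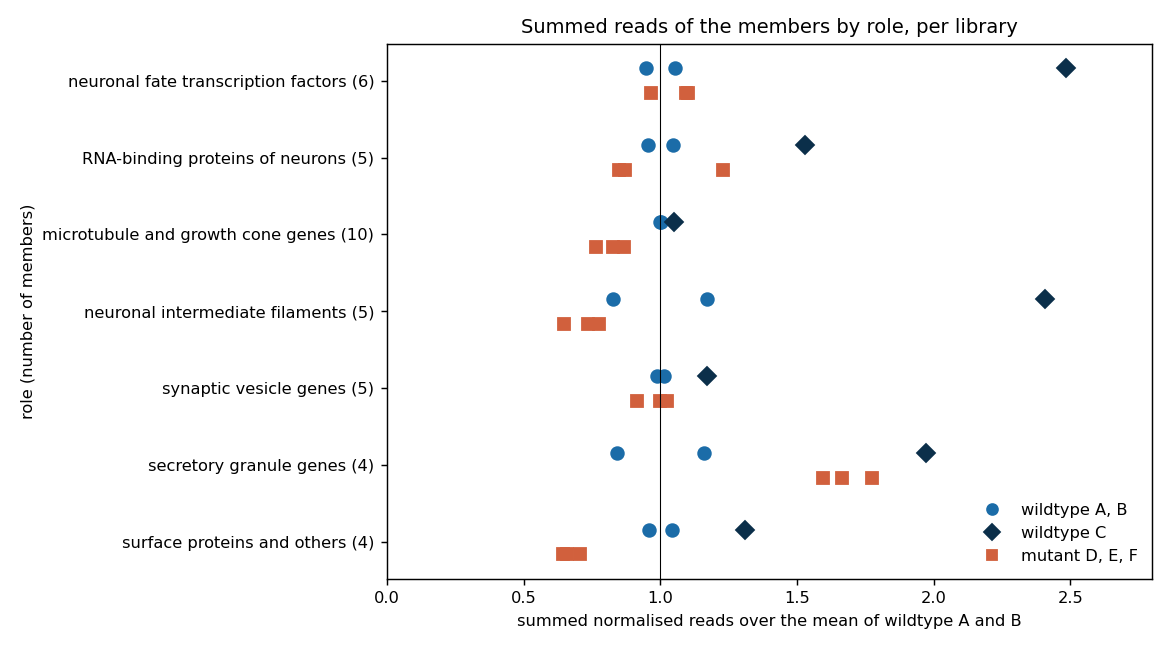
Summed normalised reads of the members of each role (vertical axis, number of genes in parentheses) in each library, divided by the mean of wildtype A and B (horizontal axis), with wildtype C as diamonds and mutants as squares. Wildtype C stands to the right for the transcription factors and the intermediate filaments (101 and 321 normalised reads). The mutants stand to the left of every wildtype library for the microtubule and growth cone genes and for the intermediate filaments. They also do so for the surface proteins and others, a sum that includes Pcp4.

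The libraries thus differed along 2 lines, the genotype and wildtype C. Wildtype C was the highest of the 6 libraries for 15 of the 22 measured members, against 16.5% of 12320 genes, and for 10 of the 17 others. It was over 1.5 times every other library for 6 of the 22 (Isl1, Elavl4, Tubb3, Stmn2, Nefm and Prph), against 0.584% of all genes. Prph, which was measured only through this library, is among both counts, which were 14 and 5 of 21 without it. Scg3, also among the first count, passed the limit of 10 only with wildtype C. Its base mean was 10.2 with 6 libraries and 7.75 with the 4 that leave out wildtype C and mutant F, per the authors' deposited tables. The median ratio of wildtype C to the mean of wildtype A and B was 1.46 over the 22 members and 1.01 over all genes. Without Prph this median was 1.41 over 21 members. For Gap43, Crmp1 and Dcx this ratio was 0.924, 0.867 and 1.15, and these genes were at 0.625, 0.702 and 0.594 of wildtype A and B in the mutant. For Isl1 and Stmn2 it was 1.92 and 3.05, and the mutant was at 0.990 and 1.24 of wildtype A and B. Both Stmn2 ratios rest on a low wildtype B, at 9.04 normalised reads against 33.6 in wildtype A. The mutant libraries, at 23.2 to 28.5 for Stmn2, lay between these. Tubb3, Elavl4 and Nefm showed both, at 2.04, 2.18 and 2.39 for wildtype C and at 0.551, 0.585 and 0.623 for the mutant.

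**Figure D3:**
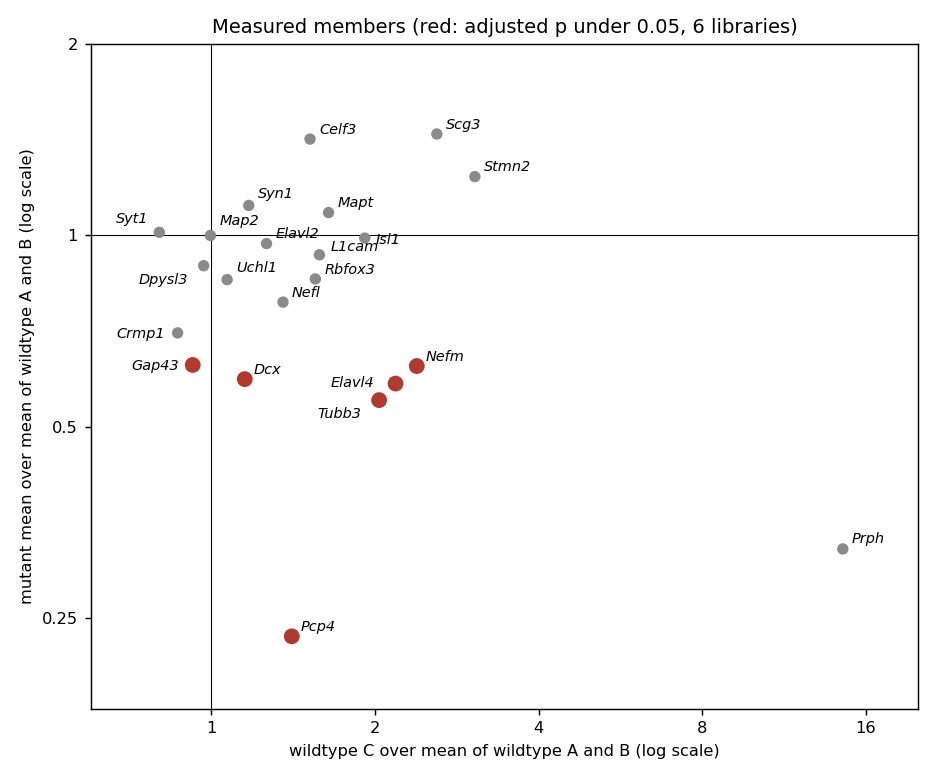
Each measured member by the ratio of wildtype C to the mean of wildtype A and B (horizontal axis, log scale) and of the mutant mean to that same mean (vertical axis, log scale), with members lower at an adjusted p under 0.05 in red. Gap43, Crmp1, Dcx and Pcp4 lie low at ratios of 0.867 to 1.41 for wildtype C, Isl1, Stmn2 and Scg3 lie to the right near or above the horizontal line, and Prph stands alone at 14.5; both axes share a denominator, so the points are a description.

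In the comparison of 4 libraries, which leaves out wildtype C and mutant F, 2 of 20 members with an adjusted p were lower (Pcp4 and Dcx) and 0 higher, per the authors' deposited table, against 0.991% and 1.31% of all measured genes. It shares its libraries with the 6-library comparison and is no independent test. The moderated log2 fold change of Pcp4 was -0.64 (DESeq2 adjusted p 0.000209), per the authors' deposited table of 4 libraries. The sign of 7 of the 39 members differed between both deposited tables. In limma on the recovered reads of all 6 libraries, where 0.998% of 12320 genes were lower, Pcp4, Dcx, Gap43 and Tubb3 were lower at an adjusted p under 0.05 and Nefm and Elavl4 were not. Leaving out 1 library at a time, Pcp4 and Dcx remained called in each of the 6 fits, with highest adjusted p of 0.00756 and 0.0363 (limma). Of all 12320 genes, 0.373%, 0.641% and 1.01% were lower in the fits without wildtype A, B and C, and 0.576%, 0.739% and 0.917% in those without mutant D, E and F. The adjusted p of Gap43 ran from 0.0193 to 0.117 and that of Tubb3 from 0.0131 to 0.150 (limma). Gap43 lost its call without wildtype A, wildtype B or mutant D, and Tubb3 without any library other than wildtype B. The log2 difference itself was -0.65 for Gap43 with all libraries and -0.76 to -0.50 over these fits, and that of Tubb3 was -1.19 and -1.49 to -0.84.

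**Figure D4:**
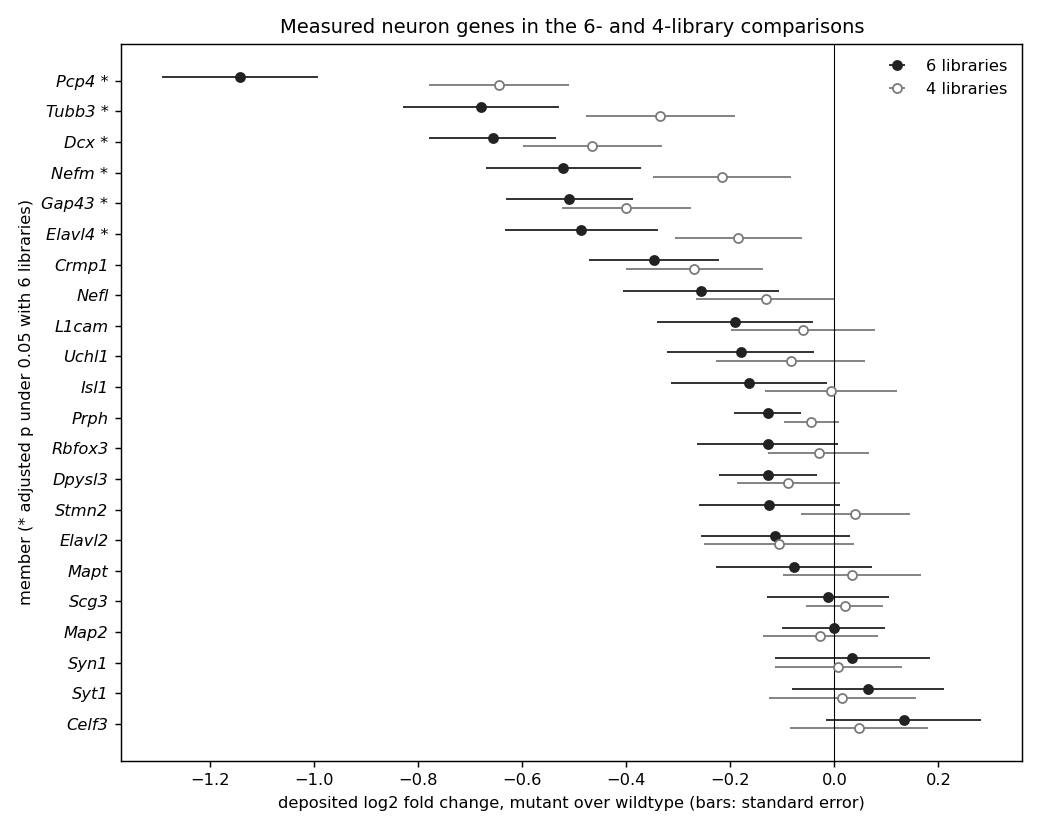
Moderated log2 fold changes of the 22 measured members (horizontal axis, mutant over wildtype) with their standard errors, in the deposited comparisons of 6 libraries (filled) and of 4 of them (open). Asterisks mark the 6 members with an adjusted p under 0.05 in the 6 libraries. Their open points all lie nearer 0, with Pcp4 at -1.14 and -0.64. Both sets are drawn toward 0, so their sizes are not ratios of reads. The log2 ratio of group means of Pcp4 was -2.28 with 6 libraries and -2.10 without wildtype C.

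Other genes of the peripheral nervous system were examined from lists kept apart from the members. Genes of autonomic neurons given here did not differ in one direction. The nicotinic receptor subunit genes Chrna3 and Chrnb4, named after their values were seen, were lower in each mutant library than in any wildtype library. Chrna3 gave 16.0, 24.5 and 26.0 normalised reads in the wildtype and 6.26, 3.67 and 14.1 in the mutant libraries, at an adjusted p of 0.208 (DESeq2), per the authors' deposited table. Chrnb4 had 8, 5 and 6 reads against 1, 2 and 2, and had no adjusted p. Gata2 and Gata3, zinc finger factors of sympathetic neurons and other cells, lay the other way. Gata2 gave 12.0, 16.8 and 9.46 normalised reads in the wildtype and 34.1, 29.3 and 26.3 in the mutant libraries, at an adjusted p of 0.116 (DESeq2), per the authors' deposited table. Gata3 gave 14.4, 16.8 and 14.2 against 18.1, 29.3 and 33.9. Slc18a2, a vesicular monoamine transporter, and Nos1, the neuronal nitric oxide synthase, overlapped between the genotypes.

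Of 28 genes of the sensory neuron lineage, 27 were in the table and 18 were measured, of which 0 were lower and 1 was higher, per the authors' deposited table. Over all measured genes, 1.19% were lower and 1.79% higher, per the authors' deposited table. The higher gene was Eya2, a transcription cofactor that placodes express and mesenchyme and muscle precursors also use, with 47.9, 56.8 and 68.6 normalised reads in the wildtype and 136, 152 and 170 in the mutant libraries. The groups were far apart, and Eya2 rose by 0.91 on the log2 scale (SE 0.143, DESeq2 adjusted p 3.97e-08), per the authors' deposited table. Of the 15 measured genes of the list with recovered reads, wildtype C was the highest library for 9, and every mutant library lay below every wildtype library for 5 and above for 3. The shares over 12320 genes were 16.5% for wildtype C the highest, 8.94% for below and 9.24% for above. Some genes of pain-sensing neurons, named after their values were seen, were high in wildtype C alone. Scn9a, a voltage-gated sodium channel gene, gave 12.0, 5.16 and 89.9 normalised reads in the wildtype and 16.0, 7.34 and 12.2 in the mutant libraries. P2rx3, an ATP-gated channel gene, gave 10.4, 11.6 and 46.1 against 16.0, 12.2 and 13.2, and Scn10a had 3, 0 and 15 reads against 1, 0 and 0. For both Scn9a and P2rx3, wildtype A and B lay among or below the mutant libraries, and the adjusted p values were 0.759 and 0.780 (DESeq2), per the authors' deposited table. Other genes of such neurons were not high in wildtype C. Calca, which encodes the peptide CGRP, gave 43.9, 27.1 and 24.8 in the wildtype and 59.8, 51.4 and 56.4 in the mutant libraries, higher in each mutant library at an adjusted p of 0.245 (DESeq2), per the authors' deposited table. Tac1, which encodes substance P, gave 12.0, 14.2 and 10.6 against 24.3, 24.5 and 12.2, with overlap.

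**Figure D5:**
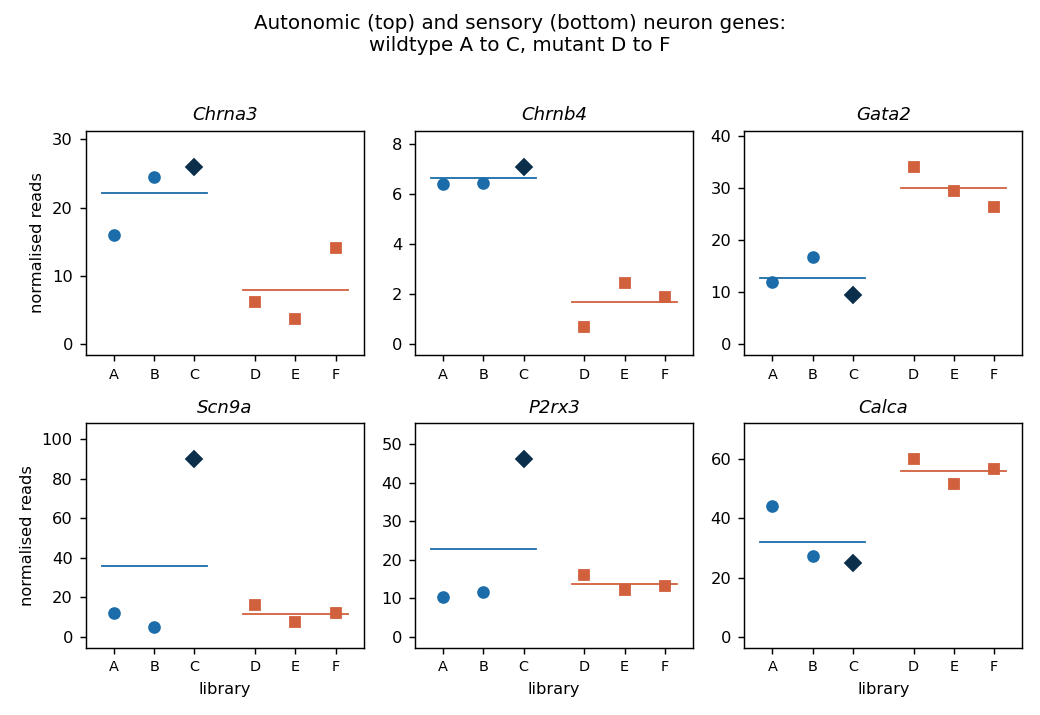
Normalised reads (vertical axis, own scale in each panel) of 3 autonomic genes (top row) and 3 sensory genes (bottom row) in each library, with wildtype C as a diamond, mutants as squares and lines at the group means. Chrna3 and Chrnb4 are lower in every mutant library than in any wildtype library and Gata2 is higher, Scn9a and P2rx3 are high in wildtype C alone, and Calca is higher in every mutant library.

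Of 46 other pan-neuronal genes, 42 were measured, with 2 lower and 1 higher, per the authors' deposited table. The shares over all measured genes were 1.19% lower and 1.79% higher, per the authors' deposited table. Tubb2b, a beta-tubulin also made by mesenchyme, fell by 0.42 (DESeq2 adjusted p 0.0184) and Myt1, a zinc finger factor of neuronal differentiation, by 0.44 (adjusted p 0.00383) on the log2 scale, per the authors' deposited table. Myt1 gave 12.0, 10.3 and 60.3 normalised reads in the wildtype and 3.48, 0 and 1.88 in the mutant libraries, without overlap and highest in wildtype C. It counts among the 42 and the 2 lower, but passed the limit of 10 only with wildtype C. Its base mean was 14.7 with 6 libraries and 6.64 with 4, where it had no adjusted p, per the authors' deposited tables. In limma on the recovered reads the adjusted p of Myt1 was 0.0345 with all 6 libraries and 0.0833 without wildtype C. The genes of both fits were chosen with wildtype C included. Map1b, a microtubule-associated protein, rose by 0.28 (DESeq2 adjusted p 0.0270), per the authors' deposited table. Of 14 neurotrophins, GDNF family ligands and receptors, 13 were measured, 1 was lower and 0 higher, per the authors' deposited table. This was Ngfr, the receptor p75 of neural crest, glia and neurons, with 562, 644 and 652 normalised reads in the wildtype and 420, 487 and 456 in the mutant libraries. Its groups did not overlap, and Ngfr fell by 0.38 (DESeq2 adjusted p 0.0140; 0.175 with 4 libraries), per the authors' deposited table.

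Markers of other cells were read beside these values, and their part in the differences was not tested. For the counts that follow, 1.19% of all measured genes were lower and 1.79% higher, per the authors' deposited table. Of 18 genes of Schwann cells and satellite glia, 13 were measured, with 0 lower and 0 higher, per the authors' deposited table, and their summed normalised reads were 2217 to 2785 in the wildtype and 1858 to 2124 in the mutant libraries. Their log2 fold change was below 0 for 11 of 13, against 54.0% of all measured genes, with a median of -0.21, per the authors' deposited table. Wildtype C was the highest library for 8 of the 13, against 16.5% of 12320 genes. Every mutant library lay below every wildtype library for 5 and above for 0, against 8.94% and 9.24%. Sox10, the neural crest and glial factor, is among these 5 but not among the 8 highest in wildtype C. It gave 37.6, 41.3 and 27.2 against 18.1, 15.9 and 19.8, without overlap and with wildtype C the lowest of its group. Its adjusted p was 0.217 (DESeq2), per the authors' deposited table. Of 16 genes of the central nervous system 5 were measured, with 0 lower and 0 higher, per the authors' deposited table, and the sums of the 14 with recovered reads were 1044 to 1122 and 967 to 976. These sums rest mainly on Dlx1, Dlx2 and Sox2, with base means of 687, 179 and 118, against 18.8 for the next, Emx2, per the authors' deposited table. They leave out the most abundant gene of this list, Nes, with a log2 fold change of 0.28 (DESeq2 adjusted p 0.132) and, with 4 libraries, of 0.35 (adjusted p 0.0179), per the authors' deposited table. Its defining markers Sox1 and Olig2 had at most 3 reads each in any library. Of 20 skeletal muscle genes, 19 were measured, with 0 lower and 12 higher, per the authors' deposited table, and the sums of the 19 with recovered reads were 1028 to 1540 in the wildtype and 2415 to 7989 in the mutant libraries. These leave out the most abundant one, Ttn, with a base mean of 9640 and a log2 fold change of 0.55 (DESeq2 adjusted p 0.00588), per the authors' deposited table. Of the macrophage markers Csf1r and Adgre1, 2 of 2 were higher, with log2 fold changes of 0.57 and 0.48 (DESeq2 adjusted p 0.000942 and 0.0392), per the authors' deposited table, and sums of 173 to 240 against 334 to 409 without overlap. Of 10 neuroendocrine genes, 4 were measured and 0 were lower or higher, per the authors' deposited table, and the sums of the 9 with recovered reads, which leave out the abundant Cpe, were 154 to 196 and 158 to 195.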

How the data were processed

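HISAT2, featureCounts, DESeq2 and the builds GRCm38 and mm10 are named in the submitters' processing notes, without versions or settings. RNA was amplified before library preparation with TruSeq v2, per the labels' protocols. Each deposited table gives, from the authors' DESeq2 comparison, the base mean (a signal, the average over libraries of size-factor-scaled counts), a log2 fold change drawn toward 0 with its standard error, the Wald score, and the p-value with its Benjamini-Hochberg adjusted p-value. The series' design text ties each table to 1 replicate of each genotype. The first table instead rests on 6 libraries and the second on 4 of the same 6. The third repeats rows of the first and was not used.

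Genes with a single read give levels of the base mean that fix each library's size factor. Whole reads of the 6 libraries were then found that fit the 4-library base mean (15 digits as deposited) and the 6-library base mean (10 digits). Genes with a 4-library base mean above 1500 (2239 of 20970) were not tried. In 314 genes the 4-library base mean alone allowed several solutions, and the 6-library base mean left 1. The search was tested on simulated counts. Depth is known only through the size factors.

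Calls are the authors' DESeq2 adjusted p under 0.05. The alternative test was limma 3.58.1 (R 4.3.3) with a mean trend on log2(normalised reads + 1) of 12320 genes with a mean of at least 10. The labels call the samples biological replicates without naming litters, so p-values measure the spread between these samples. Named were all members by role, Meis2, and those genes of 8 other lists that were called, apart from some items that are not reported here. The members and lists were chosen with earlier results of these data known, and limma and the values without wildtype C were added after the values were seen.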

Additional observations from a re-analysis of the deposited data

How the results depend on the processing

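The count of 6 lower members (0 higher) was 2 in the 4-library table, 3 with a base mean of at least 100 (fewer members), 4 in limma on the recovered reads of 6 libraries, and 2 to 3 in limma with each library left out in turn; it was 4 at an adjusted p under 0.01 and 6 with no filter on the base mean, at an adjusted p under 0.1 and with adjustment over every gene with a p. The count of higher members was 0 under each of these. The median log2 fold change of -0.15 was -0.35 with a base mean of at least 100 and -0.42 as an unmoderated ratio over 6 libraries; it was -0.19 as an unmoderated ratio without wildtype C, -0.09 in the 4-library table, -0.11 with no filter, -0.13 less the median of all genes and -0.13 without Pcp4. The causes of these changes were not tested, except that a stricter base mean leaves fewer members. Of 218 recomputed values of single members, 172 kept direction and side of the threshold, 26 lost the call and 20, in 7 members, changed sign. None of these 7 passed the test in the 6-library comparison, and 0 of the 20 values did. Map2 and Scg3 were at 0.0124 and 0.0014 less the median of all genes and at 0.0017 and 0.0174 in limma, and Mapt and Stmn2 at 0.0332 and 0.0404 in the 4-library table. With each library left out in turn, limma gave -0.11 to 0.54 for Celf3, -0.33 to 0.0103 for Elavl2, -0.0374 to 0.0419 for Map2, -0.29 to 0.12 for Mapt, -0.23 to 0.44 for Scg3, -0.81 to 0.55 for Stmn2 and -0.048 to 0.15 for Syn1. No paired analysis was possible because the recovered libraries carry no replicate numbers. The 17 members under a base mean of 10 rest on few reads, and only large differences could be detected there.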
